A study of Arabidopsis thaliana with 25 samples.

Results

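The chloroplast of *Arabidopsis thaliana* has its own ribosome, whose small subunit holds the 16S rRNA (ATCG01210) and whose large subunit holds the 23S rRNA (ATCG01180). These 2 genes, of the 11 *Arabidopsis* rRNA entries in the deposited reference table, were chosen because they are the chloroplast rRNAs with 5-methylcytosine (m5C) sites in the deposited methylation tables. The sites are C916 of 16S rRNA and C1940 and C1977 of 23S rRNA, 3 of the 7 sites in those tables. Among the listed sites the choice used the compartment and the rRNA name only. The study listed positions that passed its minimum coverage and methylation level, so that the sites are methylated is not a result here.

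Levels were measured by RNA bisulfite sequencing (RBS-seq) of total RNA from seedlings 10 days after germination, in 25 libraries. Bisulfite turns unmethylated cytosine into uracil, read as thymine, so the methylation level of a position is the percentage of mapped bases there that were cytosine. Experiment 1 had 20 libraries from plants on soil and covered 7 single mutants beside wild type, which were both nsun5 alleles (nsun5-1, nsun5-2), both nop2c alleles (nop2c-1, nop2c-2), both nop2b alleles (nop2b-1, nop2b-2) and nop2a-2, also called oli2-2. Experiment 2 had 5 libraries from plants on plates of MS medium and covered the double mutant trdmt1 trm4b and the single mutants trdmt1, trm4b-1 and trm4a beside wild type. All plants were of the Columbia ecotype, and the study describes each mutant as a homozygous T-DNA insertion line. The double mutant was built from the trdmt1 and trm4b-1 alleles. The tables hold 1 value per genotype. In experiment 1 these are the authors' averages of 3 libraries in 5 genotypes and of 2 libraries in nsun5-2 and nop2c-2, while nop2b-2 had 1 library. In experiment 2 each value is that of 1 library. No SD between libraries and no read depth can therefore be given, and every SD given is a spread over genotypes. The p-values likewise measure only the spread between genotypes' values. A cytosine can also resist bisulfite for reasons other than m5C, such as another modification or a tight fold, and the level does not separate these.

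As background, m5C is made by methyltransferases that act on single cytosines of an RNA. Chloroplast ribosomes are of the bacterial type. In the bacterium *Escherichia coli* the enzyme RsmB (Fmu) methylates a cytosine of 16S rRNA and RlmI a cytosine of 23S rRNA, and the *E. coli* sequences were not aligned here. Among the proteins mutated here, NSUN5 is related to yeast RCM1, and NOP2A, NOP2B and NOP2C are related to yeast NOP2. The yeast enzymes each methylate a cytosine of the nuclear 25S rRNA. TRM4B and TRDMT1 are tRNA methyltransferases, and TRM4A is a paralogue of TRM4B.

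The 3 sites lie in the following stretches of the deposited *Arabidopsis* rRNA sequences, shown because they are what the methylation is set in. Each has 20 bases on either side of the site, is given as DNA letters 5′ to 3′, and has the methylated cytosine in capitals. They cover positions 896 to 936 of 16S rRNA and positions 1920 to 1960 and 1957 to 1997 of 23S rRNA, counted from 1 at the 5′ end.
16S C916: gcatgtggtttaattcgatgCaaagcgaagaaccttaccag
23S C1940: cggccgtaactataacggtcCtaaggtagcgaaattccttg
23S C1977: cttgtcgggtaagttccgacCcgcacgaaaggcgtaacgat
The chloroplast genome, in RefSeq's gene table for TAIR10.1 (used for names and lengths only), has 2 rRNA genes of each length, 1491 bases for 16S and 2810 bases for 23S. These copies of equal length cannot be told apart in the tables. All 3 sites are in the later part of their RNA. C916 is at 61.4% of the length of 16S rRNA, with 575 bases after it. C1940 and C1977 are at 69.0% and 70.4% of the length of 23S rRNA, with 870 and 833 bases after them.

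The sequences around the sites differ in composition. The 41 bases around C1977 hold 11 cytosines and 56.1% G and C, those around C1940 hold 10 cytosines and 48.8%, and those around C916 hold 8 cytosines and 43.9%. Both 23S sites follow another cytosine, which is true of 199 of the 661 cytosines of 23S rRNA (30.1%), and C916 follows a guanine. The triplet centred on the site occurs 57 times in 23S rRNA for C1977 (cCc), 47 times for C1940 (cCt) and 27 times in 16S rRNA for C916 (gCa), so a triplet does not single out any of them. The shortest centred window that occurs once over all distinct *Arabidopsis* rRNAs of the reference table is 7 bases for C916 and C1977 and 9 bases for C1940. With all cytosines written as thymines, it is 9 bases for C916 and 13 bases for both 23S sites.

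In all 13 genotypes the 3 sites were highly methylated, between 70% and 84%. In experiment 1, C916 of 16S rRNA stood at 80% in nsun5-1, 82.4% in nsun5-2, 81% in nop2a-2, 81% in nop2c-1, 81.6% in nop2c-2, 81% in nop2b-1 and 81.9% in nop2b-2, against 81% in wild type. The wild type value lay inside the narrow band of the mutants, whose SD over the 7 genotypes was 0.780 points. In experiment 2, C916 stood at 79% in trm4a, 80% in trm4b-1, 80% in trdmt1 and 79% in trdmt1 trm4b, against 76% in wild type. Here the 1 wild type library was below all 4 mutants. That is the case in 1 of 14 combinations of a site with an experiment over all 7 sites (7.14%), so for C916 it is a difference from a single library that cannot be checked by a replicate.

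C1940, the first of the 23S sites, was the lowest of the 3 in every genotype. In experiment 1 it stood at 70% in nsun5-1, 71.6% in nsun5-2, 74% in nop2a-2, 70% in nop2c-1, 72.0% in nop2c-2, 71% in nop2b-1 and 71.0% in nop2b-2, against 70% in wild type. No mutant was below wild type there, and nop2a-2 was the highest. In experiment 2 it stood at 71% in trm4a, 73% in trm4b-1, 70% in trdmt1 and 76% in trdmt1 trm4b, against 74% in wild type. The wild type value fell inside the range of the mutants, and the double mutant had the highest level of this site in the series.

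C1977, 37 bases further along the same RNA, was the highest of the 3 in 11 of 13 genotypes. In experiment 1 it stood at 82% in nsun5-1, 82.3% in nsun5-2, 84% in nop2a-2, 81% in nop2c-1, 82.98% in nop2c-2, 82% in nop2b-1 and 83.8% in nop2b-2, against 82% in wild type. In experiment 2 it stood at 81% in trm4a, 82% in trm4b-1, 81% in trdmt1 and 83% in trdmt1 trm4b, against 82% in wild type. All 13 values lay within 3 points of each other. Within experiment 1 the range of C916 was the smaller, at 2.41 points.

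**Figure D1:**
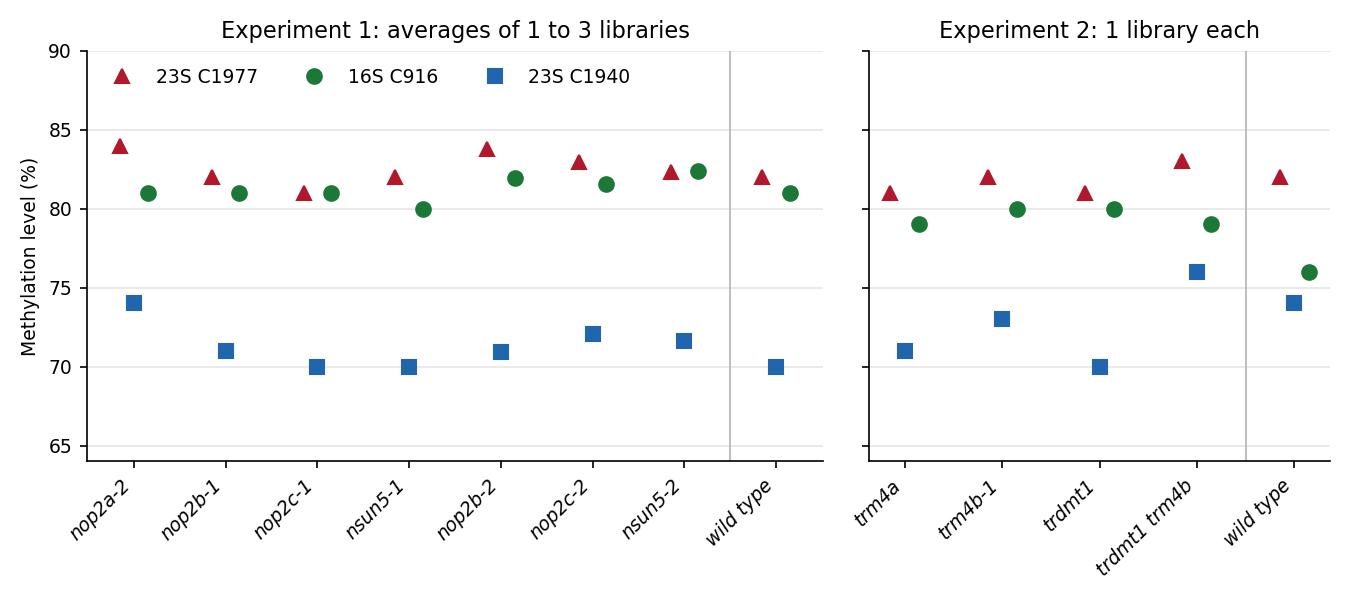
Methylation level in percent (y axis, from 64% to 90%) of the 3 chloroplast sites in each genotype, with mutants to the left of the wild type of their experiment. Each point is the deposited value of 1 genotype. C1940 is the lowest point in every genotype, and C916 in wild type of experiment 2 (76%) is the lowest C916 point.

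Over the 13 genotypes the level was 82.2% ± 0.981 at C1977, 80.3% ± 1.65 at C916 and 71.8% ± 1.91 at C1940 (SD, n = 13 genotypes). The ranges were 3 points at C1977, 6.41 points at C916 and 6 points at C1940. At the other 4 sites the range over the same genotypes was 11 points at nuclear 25S C2860, 21 points at mitochondrial 26S C1586, 30.7 points at mitochondrial 18S C960 and 83 points at nuclear 25S C2268. Without both nsun5 mutants, C2268 still ranged over 25 points. The range of C960 rests on nop2b-2, with 2.33% from 1 library, and the other genotypes lay between 18% and 33%. Within experiment 1 the range of C2860 was 3.45 points, inside the 2.41 to 4 points of the chloroplast sites, so a narrow range there was not particular to the chloroplast. The number of libraries behind a value differs between genotypes, and the number of reads behind it is not shown, so these ranges are a description.

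The mutants were set against the wild type of their experiment by counts, which do not show whether a methyltransferase is needed for a site. Among the 33 chloroplast pairs of mutant and site, 0 lay more than 10 points from their experiment's wild type. Over all 7 sites this held for 4 of 77 pairs (5.19%), and the 0 of 33 is not far from that share. At nuclear C2268 the pairs were nsun5-1 (-64 points), nsun5-2 (-36.8 points) and nop2b-1 (18 points). At mitochondrial C960 it was nop2b-2 (-25.7 points, 1 library). The largest chloroplast differences were 4 points. They were reached above wild type by nop2a-2 at C1940 and by trm4b-1 and trdmt1 at C916, and below wild type by trdmt1 at C1940. In experiment 1 the 21 chloroplast differences ranged from -1 to 4 points, with 12 above, 2 below and 7 equal to wild type, and a mean size of 0.934 points. All chloroplast values of nop2b-2, nop2c-2 and nsun5-2, given with decimals, were above wild type. All equal pairs came from columns in whole percent, so the split cannot be told apart from the column format. At the other 4 sites 11 pairs were above, 14 below and 3 equal, with a mean size of 7.89 points. In experiment 2 the 12 differences ranged from -4 to 4 points, with 6 above, 5 below and 1 equal, and a mean size of 2.25 points. Differences over 2 points were found in 2 of the 21 pairs of experiment 1 and in 6 of the 12 pairs of experiment 2. At the other 4 sites they were found in 14 of 28 pairs of experiment 1 and in 10 of 16 pairs of experiment 2. In experiment 2 all 4 mutants were 3 to 4 points above wild type at C916. These pairs share 1 wild type library, at 76%, so they are not separate differences. No test stands behind a single pair.

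**Figure D2:**
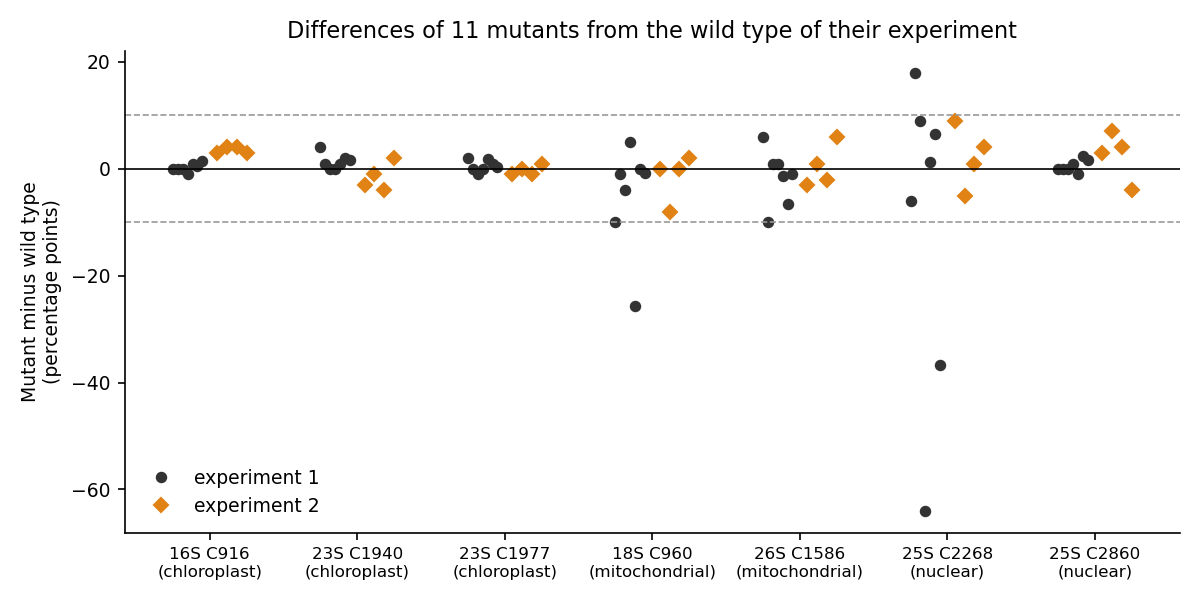
Mutant minus wild type of the same experiment in percentage points (y axis) at the 3 chloroplast sites and at the 4 other sites of the tables. Each circle is 1 of 7 mutants of experiment 1 and each diamond 1 of 4 mutants of experiment 2, and dashed lines mark 10 points. The chloroplast points lie between -4 and 4.

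Genes with 2 alleles allowed a test over genotypes. Both alleles of nop2b, nop2c or nsun5 were compared with the other 6 genotypes of experiment 1 at all 7 sites. Of these 21 tests, 0 passed after Benjamini-Hochberg adjustment (0%), and 1 had an unadjusted p under 0.05, at nuclear C2268. At the chloroplast sites the 9 differences ranged from -0.701 to 0.513 points, with p between 0.357 and 1 in a two-sided exact permutation test and adjusted p between 0.825 and 1. For nop2b, both alleles averaged 81.5% at C916 against 81.2% in the others, 71.0% against 71.3% at C1940 and 82.9% against 82.4% at C1977. The test has 28 regroupings and cannot give a p below 0.0357, so a single changed site could not have passed the adjustment. A p above the threshold does not show that the levels are equal.

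The alleles of a gene also show how far values of one gene can lie apart. The largest of the 9 chloroplast gaps was 2.41 points, between nsun5-2 (82.4%) and nsun5-1 (80%) at C916. At C1940 the level was 72.0% in nop2c-2 and 70% in nop2c-1, a gap of 2.05 points, and at C1977 it was 82.98% and 81%, a gap of 1.98 points. The second allele of a gene was the higher in 8 of 9 cases, and the exception was nop2b at C1940 with a gap of 0.0459 points. Rounding of the first alleles to whole percent can change that gap and the 0.339 points of nsun5 at C1977 in sign. The direction of both is therefore not determined. At the other 4 sites the second allele was the higher in 5 of 12 cases and the lower in 7, with gaps of up to 27.2 points. The columns of the second alleles are averages of fewer libraries and are given with decimals, while the others are in whole percent.

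Within a genotype the sites kept nearly the same order. C1940 was the lowest of the 3 in 13 of 13 genotypes, and C1977 the highest in 11 of 13. C1977 exceeded C1940 by 10.4 ± 1.64 points (SD, n = 13), between 7 and 12.8 points, with p = 0.000244 in a two-sided exact sign-flip permutation test, the smallest p it allows, and adjusted p = 0.000732. C916 exceeded C1940 by 8.49 ± 3.01 points, between 2 and 11 points, with the same p and adjusted p in the exact test. The smallest of these gaps came from wild type of experiment 2, where C916 was low and C1940 high. C1977 exceeded C916 by 1.94 ± 1.65 points and was the higher in 11 of 13 genotypes (exact p = 0.000977, adjusted p = 0.00186). The exceptions were nop2c-1, with 81% at both, and nsun5-2, with 82.3% at C1977 and 82.4% at C916. Over all 7 sites 16 of the 21 pairs differed by this test (76.2%), so a difference between 2 sites is common in these tables and 3 of 3 for the chloroplast pairs is near that share.

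The same comparisons were made within each experiment. In experiment 1, C1977 exceeded C1940 by 11.3 ± 0.9002 points, C916 exceeded C1940 by 10.0 ± 1.35 points and C1977 exceeded C916 by 1.28 ± 1.03 points (SD, n = 8, adjusted p of the exact test 0.0149, 0.0149 and 0.0386). In experiment 2 these differences were 9 ± 1.58, 6 ± 3.39 and 3 ± 2 points (SD, n = 5, exact p = 0.0625 for each, the smallest p that 5 genotypes allow). The experiments differed in growth medium and in the mutants used, and medium and experiment cannot be told apart. Between the wild types, C916 was 76% in experiment 2 and 81% in experiment 1, C1940 was 74% and 70%, and C1977 was 82% in both.

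**Figure D3:**
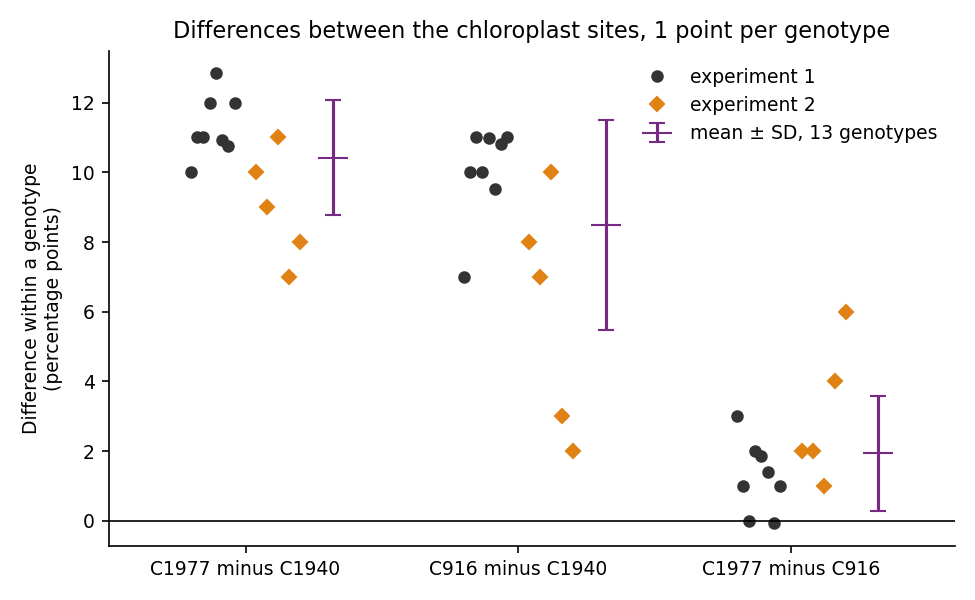
Difference in methylation level between pairs of chloroplast sites within a genotype, in percentage points (y axis), with 1 point per genotype and the mean ± SD over 13 genotypes beside them. All points of C1977 minus C1940 and of C916 minus C1940 are above 0, and those of C1977 minus C916 lie between -0.0684 and 6.

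The correlation of the 23S sites over genotypes did not pass the adjustment in experiment 1 and passed it over both experiments. In experiment 1 the correlation of C1977 with C1940 was r = 0.75 (Pearson, permutation p = 0.0257, n = 8 genotypes) and rho = 0.78 (Spearman, permutation p = 0.0353). Over the 21 pairs of sites 0 correlations passed the adjustment (0%), and this one had adjusted p = 0.541 for r and 0.741 for rho by the same permutation test. Without nop2a-2 and nop2b-2, the genotypes farthest from the median of C1977, r was 0.79 (permutation p = 0.025, n = 6). With the genotypes of both experiments, each value taken as a deviation from the mean of its experiment, r was 0.80 (permutation p = 0.00115, adjusted p = 0.0241, n = 13) and rho was 0.81 (permutation p = 0.00141, adjusted p = 0.0296). Without nop2a-2 and nop2b-2 this r was 0.87 (permutation p = 0.00072, n = 11). No share over all pairs of sites is given for both experiments. That the correlation passed there is therefore not shown to be particular to the 23S pair. The 23S sites are 37 bases apart, so one read can hold both, and the reads behind the values are not separate for the 2 sites. C916, on the other RNA, gave r = 0.33 with C1977 and r = 0.29 with C1940 in experiment 1 (permutation p = 0.428 and 0.483, n = 8, adjusted p = 0.803 for both; rho = 0.48 and 0.45, permutation p = 0.231 and 0.265). Without the 2 genotypes farthest from the median, these r were 0.39 and 0.017 (n = 6). With both experiments they were 0.044 and -0.18 (n = 13).

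For 2 of the 3 chloroplast sites the aligned mitochondrial position is also in the methylation tables. C916 of 16S rRNA aligned with C960 of mitochondrial 18S rRNA, which is in the methylation tables. C1977 of 23S rRNA aligned with C1586 of mitochondrial 26S rRNA, and C1940 with C1549 of the same RNA. The deposited label of the listed 26S site is C15860, beyond the end of the 2568-base sequence, and it was read as C1586. The paper names its conserved mitochondrial 26S site C1549, so this reading is uncertain. If the listed site is C1549, it is the partner of C1940 and not of C1977. The level of the 26S position that is not listed was not analysed here. The distance between the 2 large subunit positions is 37 bases in both RNAs. The stretches of mitochondrial rRNA, with the aligned cytosine in capitals, are shown to be read against the chloroplast ones above.
18S C960: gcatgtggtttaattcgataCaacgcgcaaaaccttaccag
26S C1549: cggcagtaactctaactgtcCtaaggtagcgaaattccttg
26S C1586: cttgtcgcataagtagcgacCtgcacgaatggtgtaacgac
Of these 41 bases, 37 were identical to the chloroplast ones at C916, 38 at C1940 and 33 at C1977, where 40 bases had a partner. Over the whole aligned RNAs 80.2% of 1386 bases were identical between 16S and mitochondrial 18S rRNA, and 76.1% of 2070 bases between 23S and mitochondrial 26S rRNA.

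Despite this likeness in sequence, the small subunit sites differed widely in level. C916 averaged 80.3% and C960 averaged 25.5%, a difference of 54.8 ± 8.94 points within a genotype (SD, n = 13), with C916 higher in 13 of 13 genotypes (two-sided exact sign-flip permutation test, p = 0.000244, adjusted p = 0.000732). The difference was 57.8 points in experiment 1 and 50 points in experiment 2. It was largest in nop2b-2, at 79.6 points, where C916 stood at 81.9% and C960 at 2.33%, both from 1 library. The large subunit sites were much closer, here with the 26S label read as C1586. C1977 averaged 82.2% and C1586 averaged 73.3%, a difference of 8.99 ± 5.48 points (SD, n = 13), with C1977 higher in 12 of 13 genotypes and equal in trdmt1 trm4b, at 83% (exact p = 0.000488, adjusted p = 0.00114). This difference was 11.9 ± 4.79 points in experiment 1 (n = 8, adjusted p of the exact test 0.0149), and only 4.4 ± 2.70 points in experiment 2 (n = 5, exact p = 0.125, adjusted p = 0.219). If the 26S label stands for C1549, the chloroplast partner is C1940, which averaged 71.8%. C1940 minus the listed 26S site was -1.44 ± 4.58 points (SD, n = 13, exact p = 0.280, adjusted p = 0.315).

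**Figure D4:**
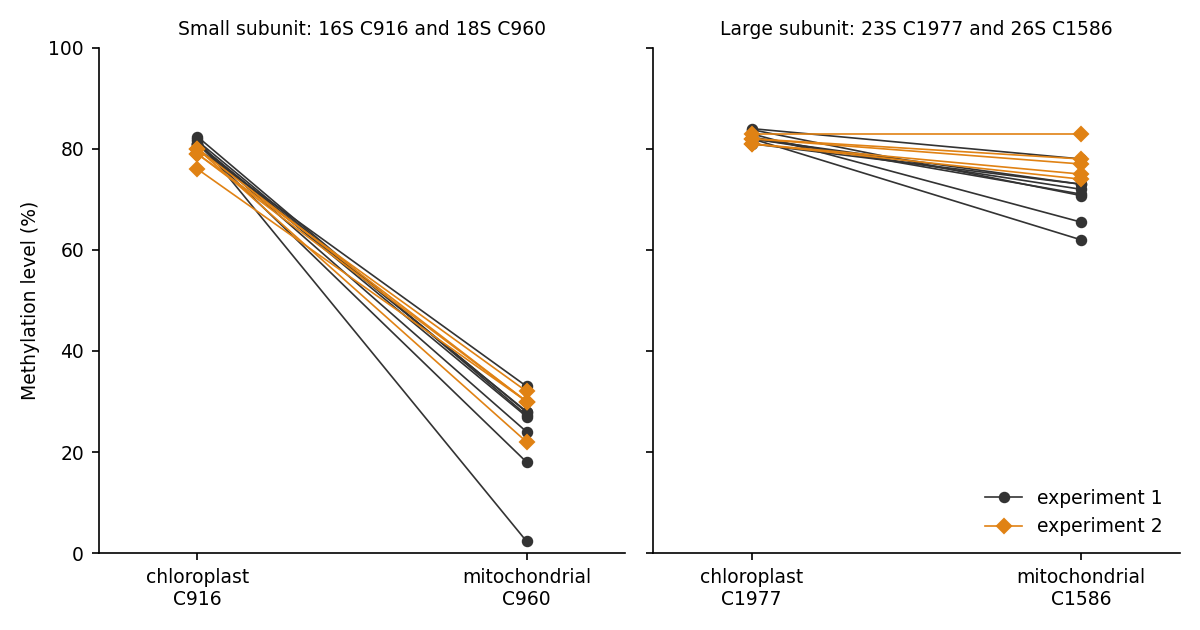
Methylation level in percent (y axis, 0% to 100%) of chloroplast sites and of the mitochondrial sites aligned with them, with 1 line per genotype. C916 is 46 to 79.6 points above C960, and C1977 is 0 to 20 points above C1586.

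Reads of the chloroplast and mitochondrial RNAs can be alike around C1940. The longest run of identical bases that holds C1940 and occurs in another *Arabidopsis* rRNA was 27 bases, in mitochondrial 26S rRNA around C1549, and it was 27 bases as well with all cytosines written as thymines. A read inside that run fits both RNAs. For C1977 the longest such run was 8 bases as deposited, in mitochondrial 5S rRNA, and 13 bases after conversion, in mitochondrial 26S rRNA. For C916 it was 7 bases, in chloroplast 23S rRNA, and 12 bases after conversion, in nuclear 25S rRNA. The sources used here do not say how reads that fit more than 1 rRNA were placed, and the part of such reads in the level of C1940 was not tested.

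No listed nuclear site was at a position aligned with a chloroplast site. The nuclear positions were the same by MAFFT, but with stiffer gap penalties at most 8 bases aligned over the whole RNA and the 3 sites had no nuclear partner. C916 aligned with a cytosine of nuclear 18S rRNA at position 1196, and the reference table lists 0 m5C sites for that rRNA. C1940 and C1977 aligned with other bases of nuclear 25S rRNA, C1940T at its position 2258 and C1977G at its position 2295, where each token gives the chloroplast base, its position in 23S rRNA and the nuclear base. The nuclear site C2268 aligned with chloroplast position 1950, a guanine 10 bases past C1940. In nsun5-1 and nsun5-2 the level of C1940 was 70% and 71.6%, against 70% in wild type.

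The reference table also gives the chloroplast rRNAs of *Brassica rapa*, *Triticum durum*, *Ginkgo biloba* and the algae *Caulerpa taxifolia* and *Nannochloropsis oculata*. The 16S entries are 1474 to 1492 bases long with 21.2% to 24.5% cytosine, and the 23S entries are 2515 to 2950 bases long with 20.4% to 23.5% cytosine. *N. oculata* had the lowest G and C content of all, 49.9% in 16S rRNA and 49.3% in 23S rRNA, against 56.5% and 55.2% in *Arabidopsis*. The table lists 1 m5C site in 16S rRNA of each of the 6 species. It lists 2 in 23S rRNA of 5 species and 3 in *N. oculata*. In *Arabidopsis* the 3 sites are 0.294% of the 1021 cytosines of both RNAs. The 12 entries of smaller chloroplast rRNAs, such as 5S rRNA, list 0 sites. This table gives numbers of sites and not their positions, and methylation in the other species was not analysed here.

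At all 3 sites the aligned base was a cytosine in 5 of 5 other species. This was also true of 67.2% of the 360 cytosines of 16S rRNA and of 58.7% of the 661 cytosines of 23S rRNA. The surroundings differed more. With 10 bases on either side, the window of C916 was identical in 1 of 5 species only, *T. durum*. Of the 353 cytosines of 16S rRNA with such a window, 19.3% were identical in at most 1 species. That share rests on the *B. rapa* entry, which is nearly the same as *Arabidopsis* elsewhere. Without it the window of C916 was identical in 1 of 4 species, and 49.0% of the 16S cytosines had at most 1. The windows of C1940 and C1977 were identical in 4 of 5 species, and *C. taxifolia* was the exception at both. Of 655 cytosines of 23S rRNA, 13.4% were identical in at least 4 species. The *B. rapa* and *G. biloba* entries of 23S rRNA are letter for letter the same sequence, 97.0% identical to *Arabidopsis*, although the table describes that of *B. rapa* as guided by the *Arabidopsis* gene. The 2 species therefore count as 1 sequence there. Without *B. rapa*, 3 of 4 windows were identical at each 23S site. The share of 23S cytosines with at least 3 of 4 was not computed, and it cannot be below the 13.4% above.

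The windows of C916 in the land plants are shown because *T. durum* has the *Arabidopsis* letters and the other two do not, with the aligned cytosine in capitals.
Triticum durum: taattcgatgCaaagcgaaga
Ginkgo biloba: caattcgatgCaacgcgaaga
Brassica rapa: gtggaggatgCaaagcgaagc
At 3 bases past the site the substitution A919C was found in *G. biloba*, *C. taxifolia* and *N. oculata*, where the token gives the *Arabidopsis* base, its position in 16S rRNA and the base of the other species. *C. taxifolia* also had G915A, directly before the site, and *G. biloba* T906C. The mitochondrial 18S window above has the letters aacgc in place of aaagc at the same place. The *B. rapa* entry had 1 substitution, A926C, and lacked 6 of the 21 bases. This entry lacks 15 bases of *Arabidopsis* 16S rRNA in all, each of them within 100 bases of C916, while 1475 of its 1476 aligned bases were identical over the rest. The table describes it as built with another reference as guide. Near the 23S sites *C. taxifolia* had G1937A, C1972T and C1978T, the last of which takes away the cytosine directly after C1977.

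Over a wider span, 83.1% of the 201 bases centred on C1940 and 83.6% of those centred on C1977 were the same in all 6 species, against 63.0% of the whole 23S rRNA. Around C916 it was 69.2%, against 71.4% of the whole 16S rRNA. This order rests on the bases that the *B. rapa* entry lacks, since without that entry it was 75.6% around C916, against 72.2% of the whole. Both 23S values were the same without *B. rapa*. C1940 sits in a run of 19 bases that is the same in all 6 species, tcCtaaggtagcgaaattc, and 14.7% of the bases of 23S rRNA are in runs at least as long. The runs that hold C1977 and C916 are 5 and 3 bases long. The spans around C1940 and C1977 overlap, so they are not separate measurements.

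**Figure D5:**
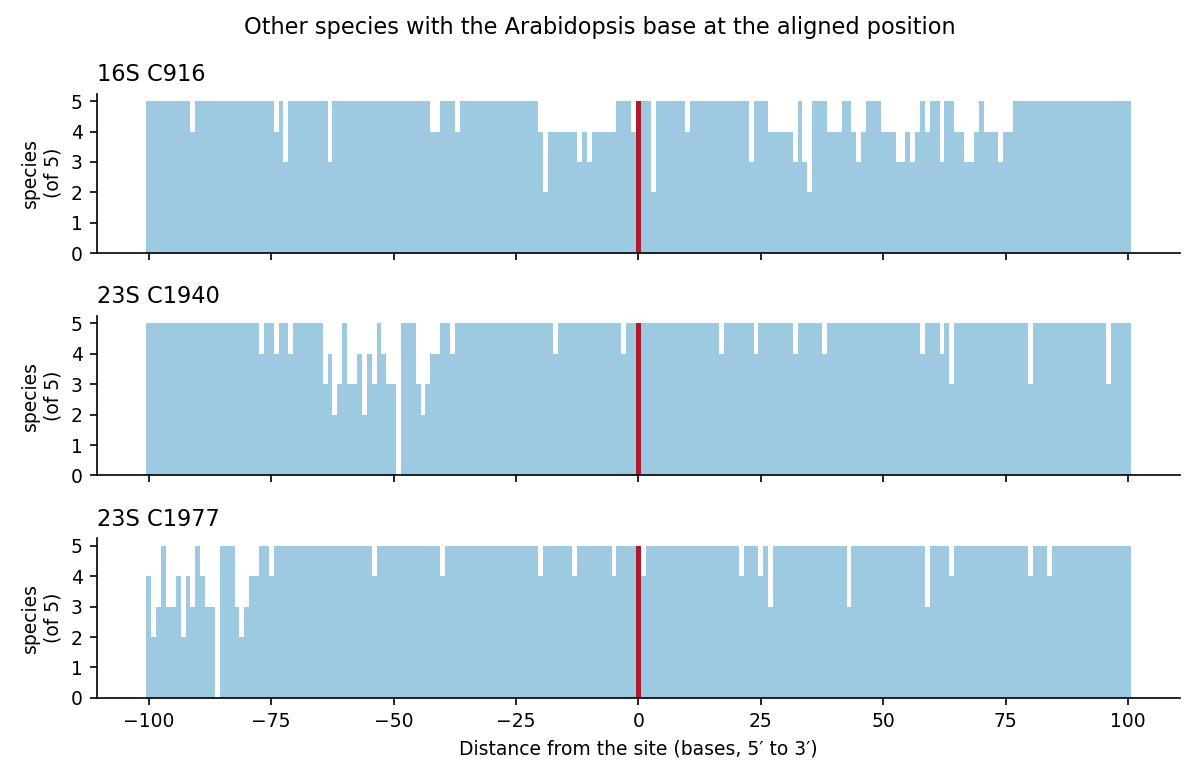
Number of the 5 other species with the *Arabidopsis* base (y axis) at each position up to 100 bases before and after the site (x axis, distance in bases). The red bar is the site, at 5 of 5 for all 3. Of the 201 positions, 139 around C916 (with the *B. rapa* gap counted), 167 around C1940 and 168 around C1977 are at 5 of 5.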

How the data were processed

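Total RNA was treated with DNase and bisulfite, and libraries were sequenced on a MiSeq. By the study's methods the authors trimmed reads and mapped them with CLC Genomics Workbench (version not given in the sources used here) to rRNA sequences with all cytosines as thymines, with an unmethylated luciferase transcript as conversion control, which was not analysed here. The labels name TAIR 10. A minimum coverage and methylation level decided which positions the authors listed. The deposited percent values are cytosines over cytosines plus thymines, as computed by the authors. Averaging in experiment 1 removes the spread between libraries, and rounding to whole percent in 10 of 13 columns hides differences below 1 point. A conversion below 100% would raise all levels.

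Libraries were grouped by genotype, medium and experiment. Differences between sites were tested within genotypes by two-sided exact sign-flip tests, alleles by exact permutation, and correlations by permuted pairings (100000 permutations with 13 genotypes), each with Benjamini-Hochberg adjustment over 21 tests. The tests were tried on simulated data. Differences from wild type were counted past 10 points without a test, since each genotype has 1 value. All chloroplast sites are named in all genotypes, and other sites only as background or where aligned.

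Sequences were aligned with Biopython 1.88 (match 2, mismatch -2, gap opening -5, extension -0.5, free end gaps), with MAFFT 7.526 and gap penalties of -10 and -1 as alternatives. Other alternatives were experiments taken alone, the logit scale (offset 0.5 points), rounding, medians, limits of 5 and 20 points, other comparators, windows of 5 and 20 bases and leaving out each genotype. Python 3.11.15, NumPy 2.4.6, SciPy 1.17.1 and matplotlib 3.10.9 were used. The sites, lists and tests were chosen with earlier results of these data known.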

Additional observations from a re-analysis of the deposited data

Results flagged for a closer look

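C916 of 16S rRNA in wild type of experiment 2 stood at 76%, apart from the 79% to 80% of the 4 mutants. Its gap of 3 points to the nearest genotype was 0.75 of the range of 4 points, above the critical ratio of 0.71 for 5 values. The 5 values are whole percents, and rounding alone could bring the ratio below 0.71. They also come from different genotypes and not from repeats of 1. It was the 1 value that stood apart among 12 end values in 6 groups of a chloroplast site and an experiment, and chance flags about 1 in 20 groups.

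The loss of TRM4B can be read in 2 backgrounds, and the differences at C916 and C1940 had opposite signs in them. At C1940 the double mutant trdmt1 trm4b was 6 points above trdmt1, and trm4b-1 was 1 point below wild type (-1), effects 7 points apart. At C916 the double mutant was 1 point below trdmt1 (-1), and trm4b-1 was 4 points above wild type, a difference of -5 points between the effects. At C1977 the values were 2 and 0 points. Opposite signs were also found at 3 of the 4 other sites, with differences of 10 points at C960, 8 points at C2268 and -15 points at C2860, so they were not particular to the chloroplast sites. The difference between backgrounds was not tested, since each genotype had 1 library.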

How the results depend on the processing

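No paired analysis was possible because each genotype has only 1 value, so replicate numbers could not be matched between genotypes. The planned library-level fits and the omission of single replicates were not run either. With experiment 2 alone the differences kept their direction and none passed the adjustment: 9 points for C1977 minus C1940, 6 for C916 minus C1940 and 3 for C1977 minus C916 (adjusted p = 0.131 in the exact test), 50 for C916 minus C960 (0.131) and 4.4 for C1977 minus C1586 (0.219). Leaving out each genotype gave 10.2 to 10.7, 8.28 to 9.03, 1.60 to 2.11, 52.7 to 55.5 and 8.07 to 9.73 points in that order, with adjusted p of at most 0.00373. The alternatives for the mitochondrial pairs and the nuclear alignments were added once the data had been seen. The count of chloroplast pairs past the limit was 0 under all 5 alternatives.

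The allele differences changed sign easily, as values near 0 do. With medians they were 0.182 for nop2b and 0.0476 for nop2c at C1940 and 0.204 for nsun5 at C916, and with both experiments 1.07 for nsun5 at C916. Leaving out each genotype gave -0.163 to 0.769, -0.551 to 0.249 and -0.386 to 1.41 for nop2b at C916, C1940 and C1977, -0.223 to 0.346, -1.26 to 0.792 and -1.69 to 0.288 for nop2c, and -1.25 to 1.16, -1.33 to 0.256 and -0.786 to -0.186 for nsun5. With both experiments centred, the correlation of C1977 and C1940 passed the adjustment at 0.80, and that of C916 and C1940 was -0.18.

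The share of 16S cytosines with an identical window in at most 1 species was 9.83% with 5 and 46.0% with 20 bases on each side, and that of 23S cytosines in at least 4 species 30.1% and 3.38%. The 23S share was 3.66% without the entry guided by *Arabidopsis*, that of *B. rapa*, where 4 species are all that remain. Both 23S sites are outside that share, since their windows were then identical in 3 of 4 species. The share with at least 3 of 4 was not computed. In an alternative added after seeing the data, the 16S share was 49.0% without *B. rapa*, and the share of invariant bases around C916 was then 3.39 points above that of the whole 16S rRNA, against -2.21 points with all 5 species. Window size and alignment left the counts at the 3 sites as they were. With gap penalties of -10 and -1 the 3 sites lost their nuclear partner, as only 8 bases of 16S and 5 bases of 23S rRNA were aligned. The tables used here hold no read depth per site, so no limit of detection is given.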
